A study of Mus musculus with 5 samples.

Results

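NRF2, encoded by Nfe2l2, and 9 of its antioxidant target genes (Nqo1, Hmox1, Gclc, Gclm, Slc7a11, Txnrd1, Srxn1, Gpx2 and Gsta4) were examined in prostate tumors of TripleTg mice that had or had not been castrated. The genes were chosen by symbol as well-known members of the NRF2 program, with earlier results of these data known. All 10 of 10 were among the 24527 genes of the count table and the 14612 genes with enough reads to be tested. Bulk RNA-seq libraries numbered 3 for castrated and 2 for intact mice. The comparison addressed whether androgen deprivation was accompanied by a different antioxidant program in these tumors. Every mouse, castrated or intact, carried the same alleles: hHGFtg, a human HGF transgene expressed throughout the body, together with hMETtg, a human MET transgene, and BCAT, a Ctnnb1 allele that yields stabilized β-catenin after recombination. The latter pair were activated by PBCre, a Cre recombinase under the probasin promoter that acts in prostate epithelium, and the animals were of mixed C57BL/6 and C3H SCID background. Castration was performed at 4 months, and castrated and intact mice were both analyzed at 8 months of age. The human transgenes and Cre have no rows of their own in the count table.

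NRF2 is a transcription factor that KEAP1 holds in the cytoplasm and delivers to the proteasome until oxidants or electrophiles modify KEAP1. Stabilized NRF2 pairs with small MAF proteins in the nucleus and binds antioxidant response elements, which raises enzymes that make glutathione, restore thioredoxin, reduce quinones and break down heme. Some of these targets also answer to other regulators: Hmox1 is repressed by BACH1 until heme releases it, and Slc7a11 is also induced by ATF4 during amino acid shortage.

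The core of the antioxidant response element, TGACNNNGC, was searched on both strands of the RefSeq promoter windows of build GRCm38.p6 (mm10), which run from 250 bases before to 50 bases after each annotated start. Windows were at hand for 7 members (Nfe2l2, Nqo1, Gclm, Slc7a11, Txnrd1, Srxn1 and Gpx2), and Hmox1, Gclc and Gsta4 had none. Of the 9 windows of these 7 members, 4 held 1 match each, and 4071 of all 32851 windows (12.4%) held the same core. The matches are shown because the genes were grouped as targets of the factor that binds this element. Capitals mark the 9-base core and lower case marks 10 bases on either side, written 5′ to 3′ on the strand that carries the core:
Nfe2l2: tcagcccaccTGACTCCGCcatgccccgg
Gclm: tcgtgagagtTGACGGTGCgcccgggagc
Txnrd1: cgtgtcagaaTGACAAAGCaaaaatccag
Srxn1: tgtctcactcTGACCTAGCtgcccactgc
The Nfe2l2 match lay on the gene strand at position -240 from the start, in the window chr2:75704614-75704913. The Gclm match lay on the opposite strand at position -134, in chr3:122245307-122245606. The Txnrd1 match lay on the opposite strand at position -92 in the second of its 3 windows, chr10:82858956-82859255, and the Srxn1 match lay on the opposite strand at position 28 after the start, in chr2:152105274-152105573. A match of these letters describes the sequence and not a bound site, and windows without the letters (those of Nqo1, Slc7a11, Gpx2 and the other windows of Txnrd1) do not cover distal enhancers.

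Expression was measured as reads per gene and is given as CPM (counts scaled to the library size, with TMM factors between libraries). The libraries of castrated replicates 1, 2 and 3 held 28015507, 18951782 and 20492061 counts, and those of intact replicates 1 and 2 held 21560355 and 22853501. All libraries held epithelial RNA: the epithelium markers, led by the luminal keratin Krt8, summed to 4054, 3725 and 4420 CPM in the castrated and to 6103 and 3823 CPM in the intact libraries, in replicate order. Prostate secretory genes separated the intact pair. The secretory transglutaminase Tgm4 stood at 1347 CPM in intact replicate 2 and at 0.224 CPM in intact replicate 1, beside 0.419, 0.0536 and 0.0487 CPM in the castrated tumors. Pbsn, which encodes probasin, had 112 counts in intact replicate 2, 0 in intact replicate 1 and 13, 0 and 5 in the castrated libraries, and Msmb had 0 counts in all 5 libraries. The basal keratin Krt5 also differed within the intact pair, with 405 CPM in intact replicate 2 and 28.9 CPM in intact replicate 1. The castrated tumors lay between these values for Krt5, at 128, 90.5 and 290 CPM. In Tgm4 and Pbsn intact replicate 1 was thus at the low level of the castrated tumors, unlike intact replicate 2, and each member is given below with and without either of them. Because the libraries are from whole tissue, fewer cells of a type and less RNA per cell cannot be told apart.

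**Figure D1:**
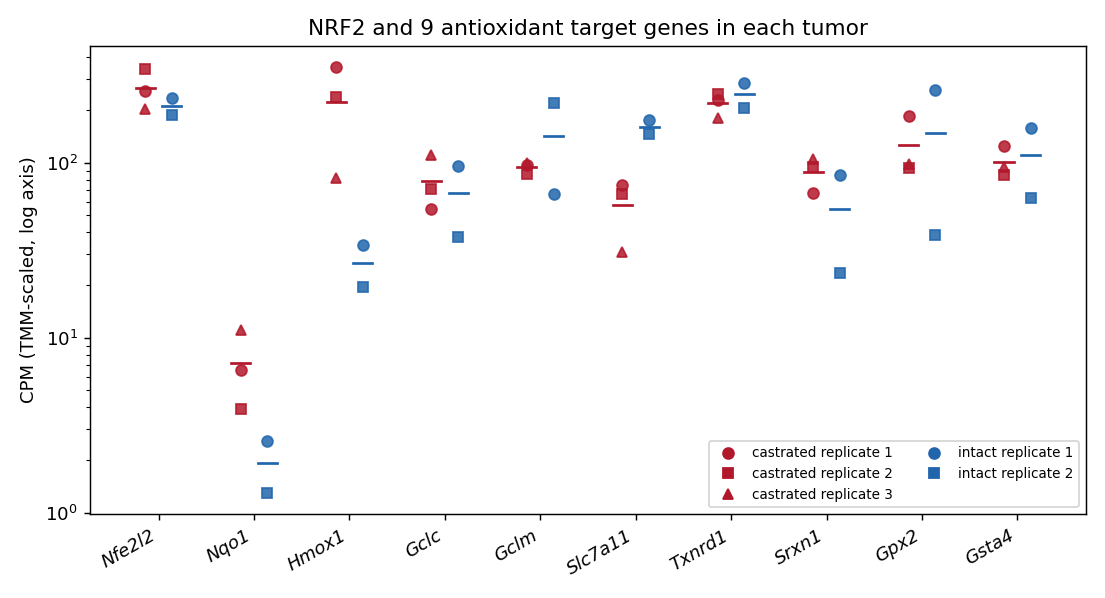
CPM (TMM-scaled, log axis) of Nfe2l2 and 9 target genes in each tumor. Points are single libraries (red, castrated, n = 3; blue, intact, n = 2) and bars are group means; the groups are separate for Nqo1, Hmox1 and Slc7a11, and the intact pair spans the castrated values of Gclm, Gpx2 and Gsta4.

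The 10 genes did not move as a block. Hmox1 and Nqo1 were higher and Slc7a11 was lower in every castrated tumor than in both intact tumors, while the groups overlapped for the other 7 members. In the edgeR quasi-likelihood test, with p adjusted over all genes tested by the Benjamini-Hochberg method, 0 members were called at an adjusted p under 0.05 with an absolute log2 fold change above 1, as were 0 (0%) of all 14612 genes, and the smallest adjusted p of any gene was 0.289. Without adjustment, 2 members had a p under 0.05 and were higher, where 8.74% of all genes tested were, and 1 was lower, where 6.28% were. Of these, Hmox1 passed that level in every fit without 1 library, Nqo1 did not without castrated replicate 1, castrated replicate 3 or intact replicate 2, and Slc7a11 did not without intact replicate 1. Of all genes tested, 2195 passed at this unadjusted level, 1277 of them higher and 918 lower. With limma-trend on log2(TPM + 1), where TPM corrects counts for gene length and scales them to an equal total, 1323 were higher and 516 lower, with test and scale both different. Separation of the groups was also common, since castrated tumors were all higher for 17% and all lower for 16.1% of genes tested, against 2 and 1 of the 10 members. On the TPM scale 2998 genes were separated with castrated higher and 1570 with castrated lower, in place of 2487 and 2348 on the CPM scale. The median log2 fold change of all genes was 0.12 in the limma-trend fit on TPM and -0.03 in the edgeR fit. Over the 10 members the median log2 fold change was 0.05, with 5 above and 5 below 0, beside a median of -0.03 and 47.9% above 0 for all genes tested. This median depended on the fit: it was 0.90 without intact replicate 1 and -0.16 without intact replicate 2, where all genes had 0.04 and 0.01. With limma-trend on TPM, limma voom and the replicate number as a block it was 0.41, 0.28 and 0.22, where all genes had 0.12, 0.02 and 0.02. At the same thresholds DESeq2 called 989 of all genes, 4.81% of those tested higher and 1.96% lower, and edgeR's likelihood ratio test called 369 (2.53%), while limma voom called 0. Among the members, DESeq2 called Hmox1 and Slc7a11 and the likelihood ratio test Hmox1. The labels number the libraries as replicates with different codes. Each was taken here as a separate animal, which the labels do not state, and the p-values rest on these 5 libraries alone.

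Nfe2l2 itself, on the minus strand at chr2:75675513-75704663, stood at 257, 345 and 204 CPM in castrated replicates 1, 2 and 3, against 234 and 188 CPM in intact replicates 1 and 2. The castrated tumors were highest in 2 cases, but castrated replicate 3 lay between the intact tumors, so the groups overlapped. The log2 fold change, castrated minus intact, was 0.35 (SE 0.29, adjusted p = 0.601, edgeR quasi-likelihood test). It stayed above 0 without intact replicate 1 (0.54), without intact replicate 2 (0.16) and without castrated replicate 2 (0.13), the lowest of these fits. NRF2 is regulated largely through the stability of its protein, which RNA-seq does not measure. Among its regulators and relatives, 15 genes were tested, of which 8 had a log2 fold change above 0, 7 below 0, and 1 an unadjusted p under 0.05, a share no larger than the 8.74% of all genes that were higher at that level. Sqstm1 encodes p62, the autophagy receptor that binds KEAP1, and stood at 423, 457 and 437 CPM in castrated tumors against 371 and 251 CPM in intact tumors. The groups did not overlap for Sqstm1, with a log2 fold change of 0.50 (SE 0.25, adjusted p = 0.407, edgeR quasi-likelihood test). Nfe2, the hematopoietic relative of NRF2, was the gene of this list with an unadjusted p under 0.05, at 1.47, 2.57 and 2.53 CPM in castrated tumors and 0.717 and 0.883 CPM in intact tumors. The groups were also separate for Rbx1 and Gsk3b, which act in the degradation of NRF2, with castrated tumors lower. Their log2 fold changes were -0.31 (SE 0.19) and -0.28 (SE 0.18). Of the 15 genes, 2 were separate with castrated higher and 2 with castrated lower, beside 17% and 16.1% of all genes tested. Keap1 and Bach1 differed little between groups. Keap1 lay between 57.5 and 63.9 CPM in castrated tumors and at 64.9 and 53.8 CPM in intact tumors, and Bach1, the repressor of Hmox1, between 57.3 and 81.1 CPM and at 69.5 and 62.7 CPM.

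Hmox1, which encodes the inducible heme oxygenase that opens the heme ring to biliverdin, carbon monoxide and iron, had the largest difference of the 10. The gene, on the plus strand at chr8:75093618-75100593, stood at 351, 238 and 81.3 CPM in castrated replicates 1, 2 and 3, against 34.0 and 19.6 CPM in intact replicates 1 and 2. These values rest on 10070, 4435 and 1668 counts in castrated and 759 and 422 counts in intact libraries, so counting error is small beside the differences between tumors. Every castrated tumor was above both intact tumors, the nearest pair differing 2.39-fold, although the castrated tumors themselves spread over a 4.32-fold range. The mean was 223 ± 136 CPM (SD, n = 3) in castrated and 26.8 ± 10.2 CPM (SD, n = 2) in intact tumors, a ratio of 8.34. The log2 fold change was 3.06 (SE 0.71, adjusted p = 0.289, edgeR quasi-likelihood test). By the p of this test, 2.28% of the genes tested ranked as high or higher, so Hmox1 was among many genes with a p this small. This rank is by p and not by the size of the difference. The log2 fold change of Hmox1 was 3.53 without intact replicate 1 and 2.67 without intact replicate 2. DESeq2 gave an adjusted p of 0.000613 and edgeR's likelihood ratio test 0.0102 for the same contrast, while the adjusted p ranged up to 0.689 over all alternatives.

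Nqo1, which encodes the quinone reductase often read as the marker of NRF2 activity, was also separate between groups but was expressed at a low level. The gene, on the minus strand at chr8:107388225-107403205, stood at 6.56, 3.92 and 11.0 CPM in castrated replicates 1, 2 and 3, against 2.55 and 1.30 CPM in intact replicates 1 and 2. The counts behind these values were 188, 73 and 226 in castrated and 57 and 28 in intact libraries. All castrated tumors were above both intact tumors, and the nearest pair differed 1.53-fold. The castrated mean was 3.71 times the intact mean, with a log2 fold change of 1.89 (SE 0.63, adjusted p = 0.306, edgeR quasi-likelihood test). It was 2.48 without intact replicate 1 and 1.44 without intact replicate 2. The order of the castrated tumors differed between these genes, as Hmox1 was highest in castrated replicate 1 and Nqo1 in castrated replicate 3.

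Of the genes that supply glutathione, Slc7a11 had separate groups, and Gclc and Gclm did not. Slc7a11, the cystine-importing subunit of system xc-, was the member lower in castrated tumors. The gene, on the minus strand at chr3:50364936-50443613, stood at 75.0, 66.4 and 30.8 CPM in castrated replicates 1, 2 and 3, against 176 and 145 CPM in intact replicates 1 and 2. Both intact tumors were above all castrated tumors, the nearest pair differing 1.94-fold, with means of 57.4 ± 23.4 CPM (SD, n = 3) in castrated and 160 ± 21.5 CPM (SD, n = 2) in intact tumors. The log2 fold change was -1.48 (SE 0.40, adjusted p = 0.290, edgeR quasi-likelihood test). It was -1.32 without intact replicate 1 and -1.65 without intact replicate 2. DESeq2 gave an adjusted p of 0.0343 for Slc7a11. Its partner chain Slc3a2, shared with other amino acid exchangers, stood at 195, 243 and 217 CPM in castrated and at 244 and 174 CPM in intact tumors, with overlapping groups.

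Gclc and Gclm encode the catalytic and modifier subunits of glutamate-cysteine ligase, the enzyme that sets the rate of glutathione synthesis. Gclc, on the plus strand at chr9:77754535-77794489, stood at 54.2, 70.7 and 110 CPM in castrated replicates 1, 2 and 3, against 96.1 and 37.6 CPM in intact replicates 1 and 2. Gclm, on the plus strand at chr3:122245557-122267215, stood at 96.8, 86.8 and 100 CPM in castrated tumors and at 66.2 and 219 CPM in intact tumors. The subunits thus took opposite orders in the intact pair, with Gclc lower and Gclm 3.31-fold higher in intact replicate 2 than in intact replicate 1. The log2 fold change was 0.23 (SE 0.50) for Gclc and -0.59 (SE 0.49) for Gclm, with adjusted p of 0.854 and 0.598 in the edgeR quasi-likelihood test. For both genes the sign changed when single tumors were left out. Gclc was at 1.08 without intact replicate 1, at -0.34 without intact replicate 2 and at -0.09 without castrated replicate 3, and Gclm at -1.19 without intact replicate 1 and at 0.47 without intact replicate 2. Gclm overlaps an antisense transcript (Gm17494) and a processed pseudogene (Gm6061), and since no source used here states whether counting used the strand, its reads cannot be told apart from those of the antisense transcript.

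The remaining members all had overlapping groups. Txnrd1, the cytosolic thioredoxin reductase, at chr10:82833951-82897724 on the plus strand, was the steadiest of them, at 228, 248 and 179 CPM in castrated replicates 1, 2 and 3, against 286 and 207 CPM in intact replicates 1 and 2. Its log2 fold change was -0.17 (SE 0.25, adjusted p = 0.775, edgeR quasi-likelihood test), and became 0.10 without intact replicate 1 and -0.43 without intact replicate 2. Srxn1, the sulfiredoxin that restores overoxidized peroxiredoxins, at chr2:152105524-152111376 on the plus strand, stood at 67.6, 94.0 and 105 CPM in castrated tumors and at 85.1 and 23.5 CPM in intact tumors. Only intact replicate 2 was apart from the rest, and the log2 fold change of 0.71 (SE 0.56, adjusted p = 0.584, edgeR quasi-likelihood test) was 1.94 without intact replicate 1 and 0.017 without intact replicate 2.

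Gpx2, the glutathione peroxidase of epithelia, at chr12:76792335-76795554 on the minus strand, showed the widest gap within the intact group. It stood at 186, 92.8 and 98.8 CPM in castrated replicates 1, 2 and 3, against 259 and 38.4 CPM in intact replicates 1 and 2, so that all castrated tumors lay between intact values that differed 6.74-fold. Gsta4, the glutathione S-transferase that conjugates the lipid peroxidation product 4-hydroxynonenal, at chr9:78191966-78209349 on the plus strand, had the same order of extremes, with 124, 85.6 and 94.5 CPM in castrated and 159 and 62.7 CPM in intact tumors. The log2 fold change was -0.24 (SE 0.79) for Gpx2 and -0.13 (SE 0.42) for Gsta4, with adjusted p of 0.909 and 0.910 in the edgeR quasi-likelihood test. Both were above 0 in the limma fits, at 0.39 and 0.13 with limma-trend on log2(TPM + 1) and at 0.25 and 0.0046 with limma voom on counts. Without intact replicate 1 they were at 1.73 and 0.71, and without intact replicate 2 at -1.08 and -0.69. Gpx2 lies within Fntb on the opposite strand, and Txnrd1 overlaps Eid3 on its own strand and Gm38560 and Gm47073 on the opposite strand. Slc7a11 overlaps Gm37498 and Nfe2l2 overlaps Gm24996, both on the same strand, so reads shared with any of these genes are uncertain.

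**Figure D2:**
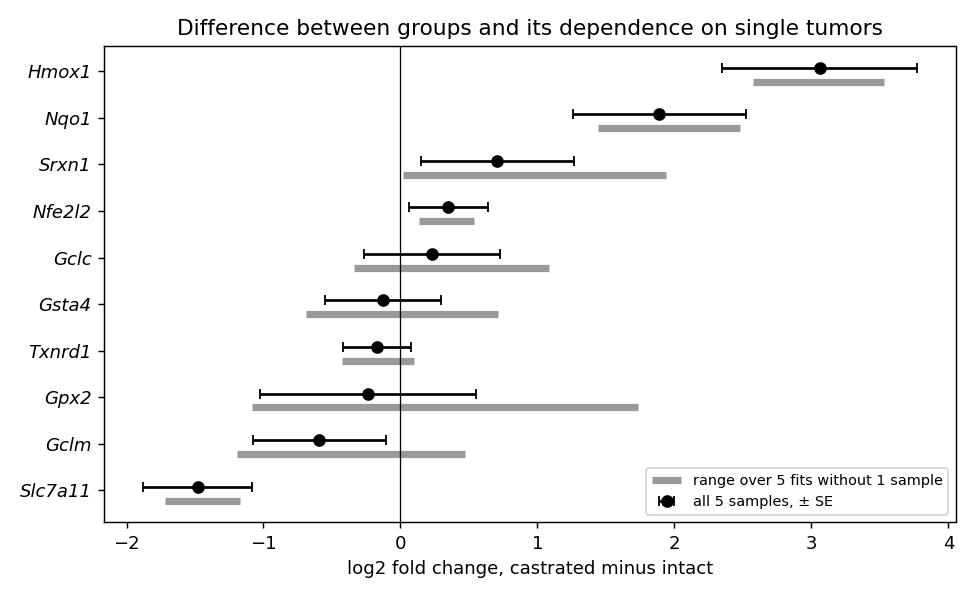
Log2 fold change (castrated minus intact, from edgeR) of the 10 members with all 5 samples (points, ± SE) and its range over the 5 fits that leave out 1 sample (gray bars). Hmox1, Nqo1 and Slc7a11 stayed on their side of 0 in each of these fits, as did Nfe2l2 and Srxn1, whereas Gclc, Gclm, Txnrd1, Gpx2 and Gsta4 crossed it.

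Much of the spread of the members lay between the intact tumors. In 7 of 10 members intact replicate 2 was the lowest of the 5 libraries, where it was for 27.5% of all genes tested, and in 4 members intact replicate 1 was the highest, where it was for 20.8%. The intact tumors differed more than 2-fold in 5 members (Gclc, Gclm, Srxn1, Gpx2 and Gsta4) and in 31.5% of all genes tested. All 3 castrated values fell between the intact values in 3 members (Gclm, Gpx2 and Gsta4) and in 17.3% of all genes tested. Intact replicate 2 was the library with Tgm4, and the part of the prostate program in these gaps was not tested. Gclm was the exception in direction, since it was highest in intact replicate 2.

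Levels can be compared between genes only per length, on the TPM scale. By the mean over all 5 libraries, Gpx2 (300 TPM), Gsta4 (257 TPM) and Hmox1 (216 TPM) were highest, followed by Nfe2l2 (148 TPM), Txnrd1 (131 TPM) and Gclm (120 TPM). Srxn1 (62.5 TPM), Gclc (47.4 TPM), Slc7a11 (24.0 TPM) and Nqo1 (7.62 TPM) were lower. The ranges over libraries overlapped between neighbors in this order for the highest members, with Gpx2 from 66.8 to 600 TPM and Gsta4 from 122 to 412 TPM. Those of Nqo1, from 1.56 to 16.5 TPM, and Slc7a11, from 7.75 to 47.0 TPM, overlapped as well. The position of Hmox1 depended on the group, as it stood at 525, 358 and 120 TPM in castrated and at 53.5 and 23.1 TPM in intact tumors. Slc7a11 carries the longest gene model of the members, so its level in TPM is lower in rank than its level in CPM.

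The genes whose profile over the 5 libraries was nearest to that of Nfe2l2, by the root mean square difference of centered log2 CPM, were Tent5c (0.0482), Gdpgp1 (0.0779) and Atp7a (0.0861). Tent5c stood at 132, 171 and 102 CPM in castrated replicates 1, 2 and 3, against 123 and 102 CPM in intact replicates 1 and 2. The profile of Hmox1 had less close neighbors: Kcnh8 (0.380), Kcnh7 (0.429) and Cda (0.477), of which Kcnh8 and Kcnh7 were near the limit of detection, at up to 2.51 and 1.61 CPM. These neighbors were taken from genes outside the members.

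Other genes of oxidant defense were read from 9 lists of 96 genes, of which 91 were tested. The lists were chosen with earlier results of these data known, so their shares beside those of all genes are descriptions and not tests. Of these, 16 (17.6%) had an unadjusted p under 0.05 and were higher in castrated tumors, beside 8.74% of all genes, and 2 (2.20%) were lower, beside 6.28%. In 24 genes (26.4%) every castrated tumor was above both intact tumors, beside 17% of all genes, and in 4 genes (4.40%) every one was below, beside 16.1%. The median log2 fold change over the 91 genes was 0.11, beside -0.03 for all genes tested, with 56 genes above 0. Over the alternatives with all 5 samples this median ran from 0.10 to 0.37, the genes above 0 from 56 to 67, and the genes higher at an unadjusted p under 0.05 from 9 to 20. In the edgeR quasi-likelihood test 0 genes of these lists were called, with 0.289 as the smallest adjusted p. At the same thresholds DESeq2 called 10, of which 8 were higher (Cbr3, Ephx1, Fth1, Ftl1, Gpx3, Gstm1, Slc48a1 and Sod3) and 2 lower (Mgst2 and Tfrc), which is 8.79% and 2.20% of the genes tested in the lists beside 4.81% and 1.96% of all genes. The likelihood ratio test of edgeR called 1 (Tfrc), or 1.10%, beside 2.53%.

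**Figure D3:**
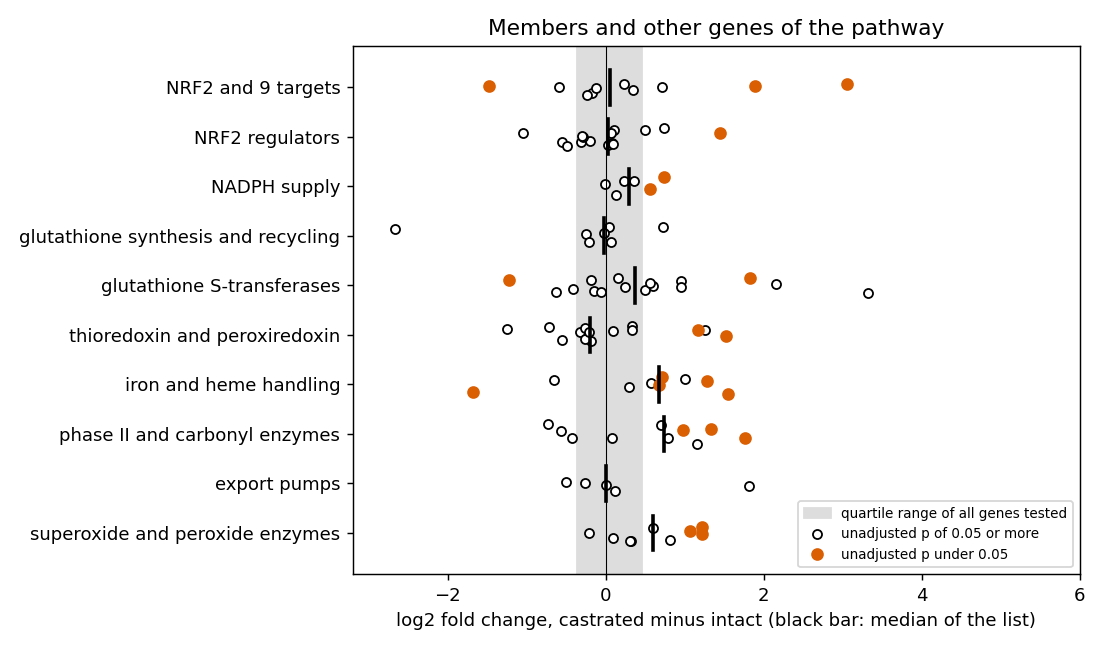
Log2 fold change (castrated minus intact) of the 10 members and of the genes tested in 9 related lists. Each point is a gene (orange, unadjusted p under 0.05 by edgeR's quasi-likelihood test). Black bars are list medians and the gray band is the quartile range of all genes tested. The iron and heme, phase II and superoxide lists have medians of 0.67, 0.74 and 0.60. Medians of the other related lists run from -0.20 (thioredoxin and peroxiredoxin) to 0.37 (glutathione S-transferases). The band, a spread of single genes, is not to be compared with these medians.

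Genes of iron and heme handling were the list nearest in role to Hmox1, and this list too was chosen with earlier results known. Of 9 tested, 7 had a log2 fold change above 0 in the main fit and in all alternatives with 5 samples, and in 7 every castrated tumor was above both intact tumors, where 47.9% and 17% of all genes tested were. At an unadjusted p under 0.05, 4 were higher and 1 was lower, beside 8.74% and 6.28% of all genes tested. The number higher ran from 1 to 6 over the alternatives with 5 samples. The ferritin light chain Ftl1, which stores iron, stood at 1315, 2650 and 1474 CPM in castrated and at 627 and 609 CPM in intact tumors, with a log2 fold change of 1.55 (SE 0.47, adjusted p = 0.297, edgeR quasi-likelihood test). The ferritin heavy chain Fth1 stood at 4409, 4331 and 2601 CPM in castrated and at 1781 and 1990 CPM in intact tumors, with a log2 fold change of 1.004 (SE 0.55, adjusted p = 0.439, edgeR quasi-likelihood test). The ferritin chains were thus above the intact tumors in all castrated tumors. Ferritin genes have processed pseudogenes that can share reads, so their counts are uncertain. Slc48a1, which carries heme out of lysosomes, stood at 127, 208 and 134 CPM in castrated and at 75.0 and 53.4 CPM in intact tumors (log2 fold change 1.28, SE 0.32). Hmox2, the constitutive heme oxygenase, and Blvrb, a biliverdin reductase, also had an unadjusted p under 0.05 and were higher. Tfrc, the transferrin receptor that brings iron into cells, differed in the other direction, at 78.1, 71.2 and 48.0 CPM in castrated and 202 and 221 CPM in intact tumors. Its log2 fold change was -1.68 (SE 0.26, adjusted p = 0.289, edgeR quasi-likelihood test), and it lay between -1.82 and -1.49 when any 1 library was left out. Slc40a1, the iron exporter, had overlapping groups, at 121, 122 and 127 CPM in castrated and at 54.5 and 333 CPM in intact tumors.

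The counts of the following lists at an unadjusted p under 0.05 stand beside 8.74% higher and 6.28% lower over all genes tested, which a list with 1 gene of 16 does not exceed. In the list of phase II and carbonyl enzymes, 3 of 10 genes tested had an unadjusted p under 0.05 and were higher, and 0 were lower. They were Ephx1, the microsomal epoxide hydrolase (330, 160 and 217 CPM in castrated, 105 and 81.9 CPM in intact tumors), the aldo-keto reductase Akr1b8 and the carbonyl reductase Cbr3, with log2 fold changes of 1.34, 0.98 and 1.76. Among superoxide and peroxide enzymes, 3 of 9 were higher at that level. The extracellular superoxide dismutase Sod3 stood at 37.1, 45.8 and 37.5 CPM in castrated and at 19.9 and 14.7 CPM in intact tumors, a log2 fold change of 1.21, and catalase (Cat) and the secreted peroxidase Gpx3 had 1.07 and 1.22. Of 6 NADPH-supplying enzymes 2 were higher, the pentose phosphate dehydrogenase Pgd (0.74) and the cytosolic isocitrate dehydrogenase Idh1 (0.56). Of 16 glutathione S-transferases 1 was higher, Gstm1 (1.83), and 1 was lower, the microsomal Mgst2 (-1.23), and reads of the near-identical Gstm and Gsta paralogs may be split in counting. Of 14 thioredoxin and peroxiredoxin genes 2 were higher, the sestrins Sesn1 (1.52) and Sesn2 (1.17), which are also induced by p53. In the 7 genes of glutathione synthesis and recycling and the 5 export pumps, 0 had an unadjusted p under 0.05 by edgeR's quasi-likelihood test. Glutathione reductase (Gsr) stood at 127, 132 and 116 CPM in castrated and at 153 and 89.9 CPM in intact tumors, again with the intact tumors at the extremes.

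Markers of other cell types differed along with Hmox1, in lists that were also chosen with earlier results of these data known. All 10 of 10 macrophage markers were higher in every castrated tumor than in both intact tumors, where 17% of all genes tested were. Of these markers, 9 had an unadjusted p under 0.05 by edgeR's quasi-likelihood test, beside 8.74% of all genes that were higher at that level. Their summed level was 2680, 7368 and 2992 CPM in castrated replicates 1, 2 and 3, against 1101 and 1665 CPM in intact replicates 1 and 2, led by the lysozyme gene Lyz2 (1596, 4736 and 1664 CPM against 558 and 1072 CPM). Macrophages that clear red cells express Hmox1, Slc48a1 and ferritin. The macrophage sum was highest in castrated replicate 2, as were Ftl1 and Slc48a1, whereas Hmox1 and Fth1 were highest in castrated replicate 1. Of the 10 markers, 8 were highest in castrated replicate 2, 1 in castrated replicate 3 and 1 in castrated replicate 1. The last was the scavenger receptor Marco, at 58.4, 21.1 and 2.97 CPM in castrated and 0.448 and 0 CPM in intact tumors. Erythroid markers, led by the globin Hbb-bs, summed to 2055, 113 and 63.7 CPM in castrated and to 6.59 and 196 CPM in intact tumors, so that intact replicate 2 had more of them than castrated replicates 2 and 3 while its Hmox1 level was the lowest. Globin copies share reads, so that single globin genes are uncertain. The part of macrophages and of blood in the Hmox1 difference was not tested.

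**Figure D4:**
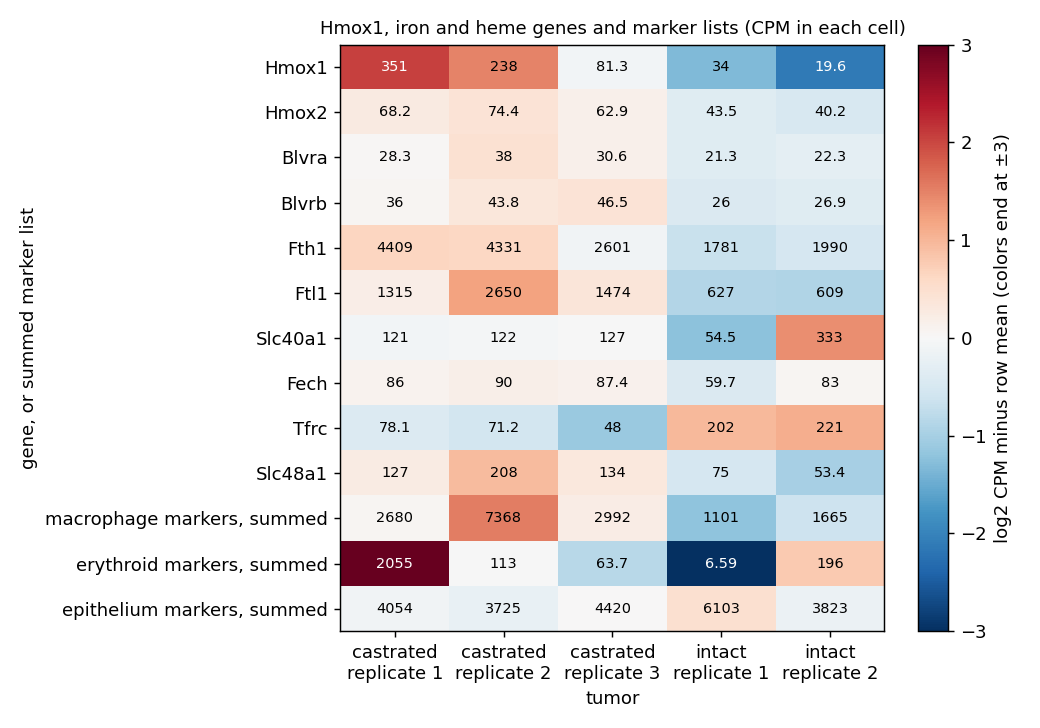
CPM (printed in each cell) of Hmox1, the 9 iron and heme genes and 3 summed marker lists in the 5 tumors, colored by log2 CPM minus the row mean. Hmox1, both ferritin chains, Slc48a1 and the summed macrophage markers were higher in all castrated columns, Tfrc was lower, and the erythroid sum was highest in castrated replicate 1 (2055 CPM).

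The other marker lists are given for the composition of the libraries. Their counts at an unadjusted p under 0.05 stand beside 8.74% higher and 6.28% lower over all genes tested. With 1 gene in a list of 4 or 5, no difference of that list is claimed. All 7 smooth muscle markers, led by Acta2, had an unadjusted p under 0.05 and were higher in castrated tumors, with sums of 381, 687 and 622 CPM against 200 and 139 CPM. Adipocyte markers, led by Fabp4, summed to 135, 656 and 578 CPM against 137 and 157 CPM, with 4 of 8 at that level, a number that ran from 0 to 6 over the alternatives with 5 samples. The defining adipocyte gene Adipoq stood at 0.523, 68.8 and 68.3 CPM in castrated replicates 1, 2 and 3 and at 0 and 0.0930 CPM in intact tumors, so that castrated replicate 1 was low beside the other castrated tumors. Fibroblast markers, led by Dcn, were higher at an unadjusted p under 0.05 in 4 of 6, and neuroendocrine markers in 4 of 4, the latter at a summed level of 17.5, 25.3 and 29.7 CPM against 1.43 and 2.18 CPM. At the same level, endothelial markers had 1 of 5 higher (Kdr), neutrophil markers 1 of 4 (Csf3r) and basal epithelium markers 1 of 5 (Krt15). The lists of T cell, erythroid, epithelium and intestinal epithelium markers had 0. All 5 cycling markers, led by Mki67, were lower in every castrated tumor, where 16.1% of all genes tested were. They summed to 50.8, 71.4 and 95.7 CPM against 224 and 285 CPM. Slc7a11 and Tfrc shared the direction of the cycling markers, and the part of cell division in their difference was not tested.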

How the data were processed

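Prostate tumor RNA of castrated (3 libraries) and intact (2 libraries) TripleTg mice was sequenced after ribosomal RNA depletion. Per the labels, reads were processed with Trimmomatic 0.39, STAR 2.7.9 and HTSeq 2.0.2 on mm10, and the values the authors deposited are raw counts per gene without normalization, beside gene lengths in kilobases, used here for TPM. The strand setting of counting is not given in the sources used here. The methods name TPM as test input, whereas counts were used here and TPM was an alternative.

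A gene entered the edgeR quasi-likelihood F-test (edgeR 4.0.16 under R 4.3.3, TMM scaling) if 2 or more samples had a CPM above 1, with Benjamini-Hochberg adjustment over all 14612 genes tested. Calls needed an adjusted p under 0.05 together with a log2 fold change beyond 1 in either direction. Log2 fold changes are castrated minus intact, and each standard error is the size of that value over the root of its F statistic. TMM factors lay between 0.944 and 1.036, and libraries held 18951782 to 28015507 counts. No pair of samples within a group was the same library (chi-square per gene of 134 or more). The common dispersion of 0.238 shows that spread between tumors exceeded counting error. The members, the 9 pathway lists and the marker lists were chosen with earlier results of these data known. Named genes were every member, up to 4 genes of each list by mean CPM or lowest p, and the 3 nearest profiles of Nfe2l2 and Hmox1. Blvra, Fech, Hmox2, Blvrb, Slc40a1, Keap1, Bach1, Rbx1, Gsk3b and the secretory genes Pbsn and Msmb were named outside this rule, after their values were seen. Alternatives were DESeq2 (1.42.0), the likelihood ratio test, voom (limma 3.58.1), 3 other scalings, 2 other filters, limma-trend on TPM with a pseudocount of 1, library sizes without the 20 genes with the most counts, the replicate number as a block, leaving out each replicate, and the older quasi-likelihood fit of edgeR, added after seeing the data. The fitting code was tested on simulated data. Promoter windows are from RefSeq (GRCm38.p6), gene positions from the deposited table, and overlaps from GENCODE M21. The test results of the prostate secretory marker list are not reported here.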

Additional observations from a re-analysis of the deposited data

How the results depend on the processing

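Hmox1, Nqo1, Slc7a11, Nfe2l2 and Srxn1 kept their direction in all 17 alternatives. DESeq2 called 989 genes and the likelihood ratio test 369 in place of 0, among them Hmox1 with either tool and Slc7a11 with DESeq2, and without 1 sample the count ran from 0 to 1. Genes at an unadjusted p under 0.05 numbered 1046 with the replicate block and 1011 to 3292 without 1 sample, and genes without overlap 5373 to 10404, where fewer samples make separation easier. Members above 0 ran from 4 to 8 and members at an unadjusted p under 0.05 from 2 to 5 without 1 sample, the 5 being Gclm, Gpx2, Hmox1, Nqo1 and Srxn1 without intact replicate 1. Without intact replicate 1 the median over the members was 0.90, and without intact replicate 2 it was -0.16. Number 3 occurs only among the castrated, so the replicate block takes castrated replicate 3 out of the comparison. With this block the log2 fold change was 3.48 for Hmox1, 1.47 for Nqo1 and -1.18 for Slc7a11. Without castrated replicate 3 it was 3.46, 1.45 and -1.17 for these genes. With the block Nqo1 no longer had an unadjusted p under 0.05. Nqo1 also lost it without castrated replicate 1, castrated replicate 3 or intact replicate 2, and Slc7a11 without intact replicate 1, whereas Hmox1 kept it in each of these fits. Same-numbered samples are a castrated and an intact animal, and the labels do not say that the numbers pair them. Their deviations from the group means correlated at 0.15 for number 1 and -0.045 for number 2. The deviations of 2 intact samples mirror each other, so these values are not separate checks and cannot exclude a shared litter or batch. Signs turned as follows, and the cause was not tested. With limma voom the values were 0.25 for Gpx2, 0.0046 for Gsta4, 0.092 for Mgst1 and 0.63 for Abcc4. With limma-trend on TPM they were 0.39 for Gpx2, 0.13 for Gsta4, 0.20 for Mgst1, 0.039 for Akr1b3 and 0.74 for Abcc4. With the replicate block they were 0.40 for Gpx2, 0.045 for Gsta4 and 0.95 for Abcc4. Mgst1 had 0.0050 with library size only and 0.024 without the top 20 genes, where Abcc4 had 0.0096, and Abcc4 had 0.0020 without a filter. Leaving out 1 sample gave ranges from -0.34 to 1.08 for Gclc, -1.19 to 0.47 for Gclm, -0.43 to 0.10 for Txnrd1, -1.08 to 1.73 for Gpx2 and -0.69 to 0.71 for Gsta4. The ranges were -0.16 to 0.32 for Nfe2l1, -0.20 to 0.35 for Slc3a2, -0.33 to 0.50 for Gsr, -3.61 to 1.60 for Ggt1, -0.68 to 1.08 for Mgst1, -1.32 to 1.13 for Akr1b3, -0.92 to 2.60 for Abcc4, -0.48 to 1.04 for Abcc1 and -0.90 to 0.023 for Abcc5. Of the 46 genes refitted, 32 never turned. With 1 intact sample left, that sample was assumed to vary like the castrated group. Depth does not limit the members other than Nqo1, which rests on 28 to 226 counts.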
